A study of Mus musculus with 40 samples.

Results

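Fertilized 2-cell mouse embryos cultured with α-amanitin were compared with untreated fertilized 2-cell embryos over every gene that the arrays measured. The comparison takes 8 of the 40 samples of the series, of which 39 hold values: 4 arrays of amanitin embryos and 4 of untreated embryos, chosen by their titles. All 8 samples are B6D2 embryos, a cross of the C57BL/6 and DBA/2 backgrounds, at the 2-cell stage after fertilization, and the groups differ only in the letter A before the replicate number. That letter was read as α-amanitin because the text on the design names fertilized embryos with and without it, and because the labels of most cloned embryos with the same letter spell it out. The rest of the series holds 1-cell embryos, embryos cloned by somatic cell nuclear transfer (SCNT) and parthenogenetic embryos. The dose of amanitin, the hours of culture, the medium of these 8 samples and the number of embryos behind each array are not given in the sources used here. Nothing in the labels says that the 4 samples of a group came from separate mothers or cultures, so p-values measure only the spread between these samples, which may be technical.

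RNA polymerase II transcribes protein-coding genes, and α-amanitin, a mushroom toxin, binds it and stops elongation, while RNA polymerase I, which makes ribosomal RNA, is resistant. A mouse egg carries a large store of maternal messenger RNA into the embryo, and the embryo's own genome is switched on in a minor wave in the 1-cell embryo and a major wave at the 2-cell stage. Over the same hours most maternal messages are destroyed, and part of that destruction is known to need products of the embryo's own genome.

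Each value is a log2 probe set intensity. On this scale 1 unit is a 2-fold difference, 5.34 is the median of all probe sets and arrays, and readings under it lie in the range where background sets the level. Correlations between arrays across genes, which are not independent replicates, ran from 0.9686 to 0.9720 among untreated arrays, from 0.9569 to 0.9655 among amanitin arrays and from 0.6605 to 0.6974 between the groups. All 8 measured oocyte identity genes, among them Zp3, Gdf9 and Ooep, lay above 5.34 in both groups. Of markers of cells that could cling to an embryo, 3 of 11 cumulus and granulosa genes, 1 of 7 spermatid genes and 3 of 5 blood genes lay above 5.34 in untreated embryos, against 4, 3 and 2 with amanitin. Summed intensity of the cumulus genes was 8.33 to 8.87 in log2 units without and 9.07 to 9.46 with amanitin, of the spermatid genes 7.41 to 7.82 and 7.90 to 8.64, and of the blood genes 7.61 to 7.74 and 7.91 to 8.0. Over the longer marker lists 1 of 23 cumulus genes was lower and 8 higher, 2 of 16 spermatid genes lower and 5 higher, and 0 of 8 blood genes lower and 2 higher, with medians of 0.22, 0.33 and 0.44 that turned to -0.27, -0.16 and -0.08 on hybridization controls. The hybridization controls, added after labelling, read 9.65 ± 0.06 (SD, n = 4) untreated and 10.03 ± 0.02 (n = 4) with amanitin (exact permutation p = 0.0286, the smallest that 4 against 4 arrays allow), and the poly(A) controls, added to the RNA, 7.52 ± 0.64 and 7.45 ± 0.21 (exact permutation p = 0.886). The 18S ribosomal RNA probe set at the 3′ end read 9.50 ± 0.23 untreated and 12.98 ± 0.08 with amanitin (exact permutation p = 0.0286), and the one at the 5′ end 11.02 ± 0.74 and 11.96 ± 0.20 (exact permutation p = 0.0857). The middle one read 10.31 ± 0.98 and 12.98 ± 0.08 (exact permutation p = 0.0286). The 3′ minus 5′ difference of Gapdh was 2.70 ± 0.16 and 2.28 ± 0.24 (exact permutation p = 0.0286, or 0.143 as deposited). That of Actb was 2.44 ± 0.32 and 2.01 ± 0.20 (exact permutation p = 0.0857, or 0.314 as deposited). The part of these control and marker differences in the results that follow was not tested. Because each sample is a pool, fewer embryos or cells with a transcript and less of it per cell cannot be told apart.

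Amanitin changed most of the measured transcriptome, and the largest decreases were far deeper than the largest increases. Of 14916 genes, 9596 (64.3%) passed the test (limma, Benjamini-Hochberg adjusted p under 0.05), 3843 (25.8%) lower and 5753 (38.6%) higher with amanitin. At least 2-fold changes counted 2942 lower (19.7%) and 3534 higher (23.7%). At 16-fold the balance turned, with 418 genes lower (2.80%) and 22 higher (0.147%), and at 64-fold 51 genes were lower and 0 higher. Arrays of the groups did not overlap for 3658 genes in the lower direction (24.5%) and 5295 in the higher (35.5%). Because the groups are separate embryos, words such as fell or went from compare groups and do not follow embryos over time. The median of all genes stood at 0.27, and this shift was not taken away from the differences, calls and list medians given here. Centring the arrays on their hybridization controls put it at -0.22 and turned the split, to 3132 higher and 4894 lower of 8026 called (1956 and 4025 at least 2-fold), while centring on the poly(A) controls gave 4062 and 2893 of 6955.

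**Figure D1:**
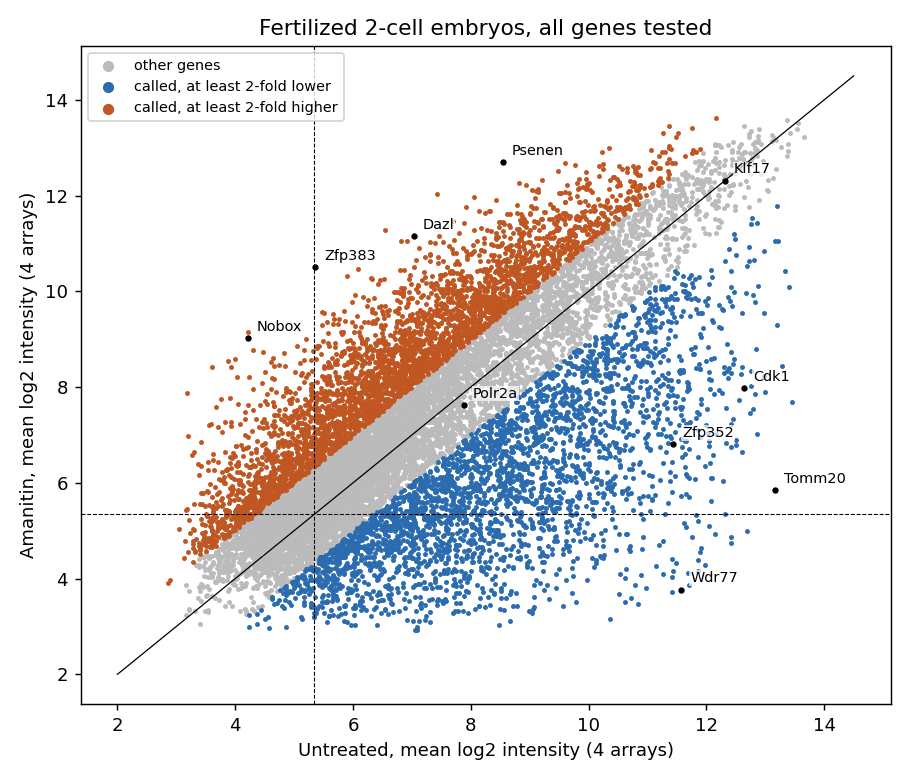
Mean log2 intensity of each of 14916 genes in untreated (horizontal) and amanitin (vertical) fertilized 2-cell embryos, 4 arrays each, with genes called at least 2-fold lower (2942) and higher (3534) in colour and dashed lines at the overall median of 5.34. Of genes called at least 16-fold lower, 55.3% lie under 5.34 on the vertical axis, and named genes are labelled.

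Many of the deepest decreases ended at background level with amanitin, so the order of their sizes is not settled. Wdr77, the methylosome partner of the arginine methyltransferase PRMT5, read 11.58, 11.56, 11.51 and 11.63 on untreated arrays and 3.41, 4.22, 2.98 and 4.48 on amanitin arrays. All 4 untreated readings were high, all 4 amanitin readings lay under the overall median, and the difference was -7.80 (SE 0.28, limma adjusted p = 5.64e-25). Because the lower readings are background, the fold is a bound: against 5.34 in place of the amanitin level Wdr77 was at least 75.1-fold lower. Tomm20, the receptor by which the mitochondrial outer membrane takes in proteins, read 13.11, 13.27, 13.15 and 13.11 untreated and 5.82, 5.67, 5.76 and 6.11 with amanitin, groups that lie far apart (-7.32, SE 0.19). Its amanitin level is above the median, so this fold, 159, is measured on both sides. Riox1, a ribosomal oxygenase, read 10.81, 10.87, 10.69 and 10.96 against 3.54, 3.38, 3.53 and 3.40. All 4 untreated readings were thus high and all 4 amanitin readings background (-7.37, SE 0.20), as was its untreated 1-cell mean of 3.50. Others among the 15 largest decreases were Ubtfl1 (-7.58, SE 0.36), an HMG-box gene of preimplantation embryos, Rab20 (-7.21, SE 0.21), a small GTPase of endosomes, and Exoc3l2 (-7.28, SE 0.32), related to the exocyst. Zfp622, a zinc finger protein among the 8 genes with the highest untreated readings, stood at 13.47, 13.47, 13.41 and 13.43 untreated and 7.57, 7.80, 7.49 and 7.85 with amanitin (-5.76, SE 0.17). Its untreated readings lie near the top of the intensity range.

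Genes listed as activated at the 2-cell stage were mostly lower with amanitin. Of 34 measured members 24 were lower (70.6%, against 25.8% of all genes), 7 higher (20.6%, against 38.6%) and 3 not called, with a median of -1.95. Centred on hybridization controls, 3 were higher. Zfp352, a retroposed zinc finger gene of the 2-cell embryo, read 11.30, 11.16, 11.84 and 11.43 untreated and 5.92, 7.03, 7.06 and 7.22 with amanitin. The groups did not overlap, amanitin replicate 1 was the lowest, and the difference was -4.63 (SE 0.25). Pramel7, which promotes naive pluripotency, read 12.04, 11.93, 12.17 and 12.15 against 5.60, 5.60, 5.98 and 5.27, lower on every amanitin array (-6.46, SE 0.28). Btbd18 read 11.68, 11.29, 11.23 and 11.46 against 4.86, 3.88, 3.23 and 4.18 (-7.38, SE 0.34). Within the Obox homeobox family the members parted. Obox6 fell to 4.39 ± 0.19 from 11.86 ± 0.18, while Obox5, at 11.27 ± 0.13 untreated, stood at 13.31 ± 0.04 with amanitin (2.04, SE 0.09) and Obox2, at 10.01 ± 0.14, at 12.26 ± 0.08 (2.24, SE 0.09). In untreated 1-cell embryos Obox5 and Obox2 read 13.07 and 13.25, and Obox6 4.18. Obox5 and Obox2, like Klf17, thus did not rise from the 1-cell to the 2-cell stage in untreated embryos. Klf17, a Krüppel-like factor that read 12.81 in untreated 1-cell embryos, was not called. It read 12.33, 12.37, 12.33 and 12.21 untreated and 12.33, 12.29, 12.35 and 12.27 with amanitin. Those readings are interleaved, with a 95% interval of the difference from -0.12 to 0.12, but as deposited Klf17 was called higher (0.31).

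The promoters of these genes are shown because the letters GGATTA, the core that OTX-type and OBOX-type homeodomains recognise, were found in 6 of the 21 with an entry (28.6%), against 5.78% of the 11959 promoters of genes tested (median GC content 46.3% against 59.7%) and 11% of those of genes at least 16-fold lower. The search took exact matches on either strand in RefSeq windows of 250 bases before to 50 after each start (GRCm38.p6). A match describes the letters and is not evidence of binding. Genes of a chromosome set aside from printing were not candidates for the sequences below, whatever their letters or decreases. Printed are the 150 bases before the start of the 2 candidates with the largest decreases among those with the letters there. They are Tdpoz1 at chr3:93676284-93676433 (minus strand) and Zfp352 at chr4:90218670-90218819 (plus strand). Both are given 5′ to 3′ on the gene's strand, with matches (here TAATCC, the reverse complement) in capitals:
Tdpoz1: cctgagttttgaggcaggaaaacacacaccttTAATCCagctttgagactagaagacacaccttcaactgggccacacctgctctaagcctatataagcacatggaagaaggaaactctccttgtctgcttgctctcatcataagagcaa
Zfp352: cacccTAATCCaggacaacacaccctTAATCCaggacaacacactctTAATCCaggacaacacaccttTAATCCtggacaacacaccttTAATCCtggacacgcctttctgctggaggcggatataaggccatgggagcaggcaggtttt
Zfp352 holds 5 copies in this stretch, the first base of each at positions -145, -124, -103, -82 and -61 from the start, and Tdpoz1, a TRAF and BTB domain gene that differed by -6.59 (SE 0.36), holds 1.

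Factors that build the ribosome fell nearly as a whole. Of 107 measured ribosome biogenesis factors 99 were lower (92.5%, against 25.8% of all genes), 2 higher and 6 not called, with a median of -2.58. Surf6, a nucleolar protein, read 10.46, 10.58, 10.71 and 10.72 untreated and 3.33, 3.34, 3.17 and 4.18 with amanitin, all of the latter at background (-7.11, SE 0.21). Polr1c, a subunit that RNA polymerases I and III share, read 11.86, 11.87, 11.80 and 11.92 against 4.75, 5.77, 4.62 and 5.68 (-6.66, SE 0.18). No amanitin reading came near an untreated one. Rrp9 (-6.07, SE 0.35), a component of the U3 small nucleolar ribonucleoprotein, and Rrp12 (-5.75, SE 0.34), which helps export both subunits, were also among the 4 largest. One of the 2 that were higher was Riok1 (1.94, SE 0.10), an atypical kinase of late 40S maturation whose 1-cell reading was 12.43, and the other Nol8 (0.32, SE 0.13), a nucleolar protein, which turned to -0.16 on hybridization controls. Exosc8, an exosome subunit, was not called (-0.19, SE 0.10).

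Ribosomal proteins of the cytosol followed the same course, with 45 of 48 measured members lower, 1 higher and 2 not called, and a median of -3.14. Rps19, a protein of the 40S subunit, read 10.97, 10.81, 10.38 and 10.37 untreated and 3.91, 3.69, 5.32 and 3.85 with amanitin. Replicate 3 was the highest of the amanitin arrays and still far under the lowest untreated one (-6.44, SE 0.36). Rps18 was 5.11 (SE 0.16) lower and Rpl41, the smallest ribosomal protein, 5.09 (SE 0.18) lower. Rpl13a was the exception, at 10.78 ± 0.19 untreated and 11.24 ± 0.05 with amanitin (0.46, SE 0.10), but it depends on the probe set: the mean of its probe sets gave -1.08. Rps27l, the p53-linked relative of Rps27, was not called (0.25, SE 0.14). Many ribosomal protein genes have processed copies in the genome, and cross-hybridization between copies was not tested. Ribosomal proteins of the mitochondrion did not move as one: 43 of 76 were lower, 26 higher (13 on hybridization controls) and 7 not called, with a median of -0.80. Their ends were Mrpl51 (-4.44, SE 0.13) and Mrps25 (2.69, SE 0.14).

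Promoter letters are shown for these lists because both are rich in CCGGAAG, a core of ETS-family binding sites. It was found in 39 of 90 promoters of ribosome biogenesis factors (43.3%) and 21 of 42 of ribosomal proteins (50%), against 15.5% of all 11959, 23.3% of genes at least 2-fold lower, 13.7% of genes at least 2-fold higher and 1 of 49 of oocyte genes (2.04%). The E-box CACGTG, which MYC-family factors recognise, was in 20 of 90 ribosome biogenesis promoters (22.2%), 3 of 42 of ribosomal proteins (7.14%) and 9.52% of all. Median GC content of the windows was 58.8% for ribosome biogenesis, 57.3% for ribosomal proteins, 53% for oocyte genes and 59.7% for all. Neither motif's letters contain the other's. Genes of the chromosome set aside from printing were again not candidates. The 3 candidate ribosome biogenesis genes that were lower and had both letters within 150 bases before the start were Nop2 (chr6:125131733-125131882, plus strand), Wdr46 (chr17:33940573-33940722, plus) and Utp18 (chr11:93885767-93885916, minus). Of the 14 candidate ribosomal protein genes that fell and had CCGGAAG there, Rps18 (chr17:33955666-33955815, minus) and Rpl41 (chr10:128549169-128549318, minus) had the largest decreases. Matches on either strand are in capitals:
Nop2: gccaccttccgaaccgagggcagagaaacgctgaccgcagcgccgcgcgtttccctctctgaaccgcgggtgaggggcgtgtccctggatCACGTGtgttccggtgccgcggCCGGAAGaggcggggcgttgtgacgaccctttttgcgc
Wdr46: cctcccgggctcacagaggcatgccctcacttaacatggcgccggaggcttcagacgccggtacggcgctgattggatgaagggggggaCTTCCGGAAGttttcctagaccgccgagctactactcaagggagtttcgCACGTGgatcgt
Utp18: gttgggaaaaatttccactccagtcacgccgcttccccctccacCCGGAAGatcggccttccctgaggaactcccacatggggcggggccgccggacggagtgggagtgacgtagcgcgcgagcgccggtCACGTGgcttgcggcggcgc
Rps18: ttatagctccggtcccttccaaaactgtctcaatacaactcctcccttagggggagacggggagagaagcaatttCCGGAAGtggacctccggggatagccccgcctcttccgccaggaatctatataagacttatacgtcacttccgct
Rpl41: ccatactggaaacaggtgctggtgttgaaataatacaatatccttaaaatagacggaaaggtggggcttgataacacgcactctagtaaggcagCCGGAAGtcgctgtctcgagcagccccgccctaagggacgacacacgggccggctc
In Wdr46 the capitals join a match on each strand, which overlap. Nop2, a methyltransferase of 28S ribosomal RNA, differed by -5.55 (SE 0.40), Wdr46, a scaffold of the small subunit processome, by -4.53 (SE 0.17) and Utp18, of the same processome, by -1.23 (SE 0.15).

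Genes of the RNA polymerases, subunits and initiation factors, were mostly lower in amanitin embryos. Of 37 measured genes of this list, 29 were lower (78.4%, against 25.8% of all genes), 5 higher and 3 not called. The median was -2.24, and 2 were higher on hybridization controls. Beside subunits of RNA polymerases I, II and III the list holds initiation factors of polymerases I and III. These are Rrn3, Ubtf, Taf1a, Taf1b, Taf1c, Taf1d, Brf1, Brf2 and Bdp1, all called lower. Polr2b, the second largest subunit of RNA polymerase II, read 11.86, 11.76, 11.79 and 11.95 untreated and 7.52, 7.62, 7.44 and 7.32 with amanitin, a 20.6-fold fall (-4.37, SE 0.23). Polr2a, the largest subunit, to which amanitin binds, read 8.08, 7.80, 7.85 and 7.80 against 7.87, 7.65, 7.39 and 7.60. Those groups overlap, and the difference was not called (-0.25, SE 0.25, 95% interval -0.76 to 0.25). Polr2g, a stalk subunit of RNA polymerase II, was higher (2.03, SE 0.12). Among general transcription and elongation factors 35 of 57 were lower (61.4%), 14 higher and 8 not called (median -0.68, or -1.17 with 9 higher on hybridization controls). Gtf2e1, of TFIIE, was lower (-4.68, SE 0.30), as was Cdk7, the kinase of TFIIH (-4.08, SE 0.17). Taf9b, a TFIID subunit, was higher, at 7.26, 7.50, 7.77 and 7.32 untreated and 11.10, 11.09, 11.19 and 11.22 with amanitin (3.69, SE 0.17). Mediator, the complex between activators and the polymerase, had 10 subunits lower, 10 higher and 10 not called, and on hybridization controls 15 lower and 5 higher. Its median of 0.04 turned negative under median centring (-0.06), as deposited (-0.06) and on hybridization controls (-0.50). Med7 (-3.80, SE 0.17) and Med15 (2.80, SE 0.16) stood at its ends.

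Messenger RNA processing genes held changes in both directions. Core splicing factors counted 34 of 69 lower (49.3%, against 25.8% of all genes), 21 higher (30.4%, against 38.6%) and 14 not called (median -0.35, or -0.82 with 44 lower and 14 higher on hybridization controls). SR and hnRNP proteins counted 26 of 52 lower (50%), 18 higher (34.6%, near the share of all genes) and 8 not called (median -0.32, or 0.04 on poly(A) controls and -0.63 with 12 higher on hybridization controls). Export and nuclear pore genes counted 31 of 63 lower (49.2%), 24 higher (38.1%, near the share of all genes) and 8 not called (median -0.47, or -0.87 on hybridization controls). Tra2a, a splicing activator, read 10.90, 11.26, 11.01 and 11.14 untreated and 5.45, 5.95, 5.87 and 5.36 with amanitin (-5.42, SE 0.20). Srsf1, the founding SR protein, read 12.73, 12.94, 12.97 and 12.71 untreated and 8.34, 9.07, 8.85 and 8.88 with amanitin (-4.05, SE 0.16). Its amanitin readings were well above background, and its mean in untreated 1-cell embryos was 8.04. Xpot, the exporter of transfer RNA, was at background on all 4 amanitin arrays (-6.91, SE 0.31). Nxf1, the main mRNA export receptor, was lower (-5.18, SE 0.23). In the other direction stood Lsm3 (2.77, SE 0.11), of the LSm ring, and Kpna7, the importin of eggs and early embryos, at 6.80, 6.75, 7.43 and 7.28 untreated and 10.58, 10.70, 10.66 and 10.64 with amanitin (3.58, SE 0.12).

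Genes of protein synthesis and turnover were more often lower than higher, against 25.8% lower and 38.6% higher of all genes. Translation factors counted 27 of 44 lower (61.4%), 13 higher (29.5%) and 4 not called (median -1.09), and aminoacyl-tRNA synthetases 14 of 21 lower (66.7%), 6 higher (28.6%) and 1 not called (median -1.44). Chaperones counted 29 of 49 lower (59.2%), 15 higher (30.6%) and 5 not called (median -0.80), and proteasome subunits 28 of 45 lower (62.2%), 13 higher (28.9%) and 4 not called (median -0.86). Centred on hybridization controls, 6, 3, 7 and 8 members of these lists were higher. Eif3c, a core subunit of initiation factor 3, read 11.75, 11.76, 11.60 and 11.53 against 4.39, 5.52, 5.55 and 4.82 (-6.59, SE 0.21). Rars, which charges arginine, was 4.36 (SE 0.20) lower and Cct4, a chaperonin subunit, 5.29 (SE 0.14) lower. Psmb5, the chymotrypsin-like proteasome subunit, read 11.05, 11.15, 10.70 and 10.83 against 5.64, 5.71, 6.14 and 5.42 (-5.21, SE 0.22). Psme3, the nuclear proteasome activator, was higher (2.81, SE 0.16), and so was Pfdn4, a prefoldin subunit (2.90, SE 0.11). The heat-shock genes Hspa1a, at 7.90, 8.17, 8.03 and 7.99 untreated and 5.09, 5.22, 4.91 and 5.36 with amanitin, and Hspa1b, which is nearly identical to it and may share probes, were lower by 2.88 (SE 0.29) and 2.71 (SE 0.18).

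Metabolic lists held large decreases of single enzymes beside increases of others. Nucleotide synthesis enzymes counted 20 of 35 lower (57.1%, against 25.8% of all genes), 9 higher (25.7%, against 38.6%) and 6 not called (median -0.98). Ppat, which commits phosphoribosyl pyrophosphate to purines, read 11.27, 11.49, 11.52 and 11.38 against 3.99, 3.94, 3.81 and 3.09, and Prps1, which makes that substrate, 12.54, 12.44, 12.30 and 12.38 against 4.52, 3.72, 5.60 and 5.63. Both were high on all 4 untreated arrays and near or under the overall median on all 4 amanitin arrays (Ppat -7.71, SE 0.22, and Prps1 -7.55, SE 0.38). Serine, one-carbon and polyamine enzymes were divided, at 13 of 33 lower (39.4%), 14 higher (42.4%) and 6 not called (median 0.07, or -0.36 with 7 higher on hybridization controls). Psat1, the aminotransferase of serine synthesis, read 11.85, 12, 11.81 and 11.91 against 3.09, 4.88, 4.27 and 5.98, the last above the overall median (-7.33, SE 0.38), and Gldc, of the glycine cleavage system, fell by 7.13 (SE 0.21). Oxidative phosphorylation counted 37 of 75 lower (49.3%), 17 higher (22.7%) and 21 not called (median -0.52, or -0.95 with 8 higher on hybridization controls). Glycolysis and the tricarboxylic acid cycle counted 16 of 46 lower (34.8%), 22 higher (47.8%) and 8 not called (median 0.24, or -0.28 on hybridization controls), with Taldo1 (-4.46, SE 0.33), of the pentose phosphate branch, and Idh1 (4.00, SE 0.30), the cytosolic isocitrate dehydrogenase near the ends. Lysosome and autophagy genes counted 36 of 68 lower (52.9%), 18 higher (26.5%) and 14 not called (median -0.59, or -1.14 with 11 higher on hybridization controls). Among them the cathepsin Ctsc read 12.12, 12.09, 12.06 and 12.27 against 5.06, 5.53, 4.28 and 4.89 (-7.20, SE 0.37).

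**Figure D2:**
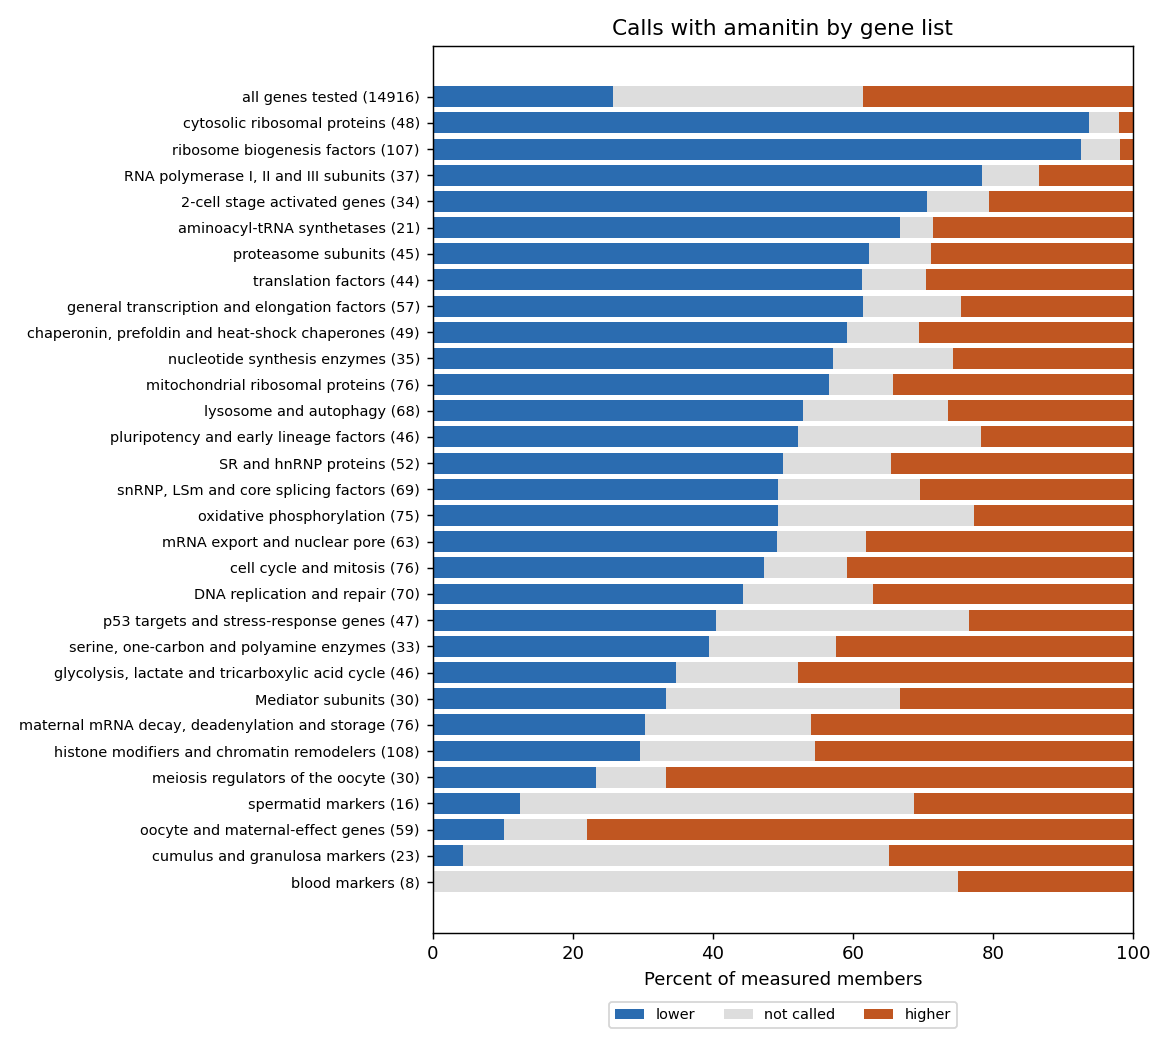
Share of the measured members of each of 30 gene lists, and of all 14916 genes at the top, called lower (left), not called (middle) and called higher (right) with amanitin, in percent of members, with the number measured beside each name. Ribosome biogenesis (92.5% lower) and ribosomal proteins (93.8% lower) lie at one end and oocyte genes (10.2% lower) near the other, against 25.8% of all genes.

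Cell-cycle, replication and chromatin genes held opposite changes within each list. Cell cycle and mitosis genes counted 36 of 76 lower (47.4%, against 25.8% of all genes), 31 higher (40.8%, near the 38.6% of all genes) and 9 not called (median -0.06, or -0.45 with 21 higher on hybridization controls). Replication and repair genes counted 31 of 70 lower (44.3%), 26 higher (37.1%, near the share of all genes) and 13 not called (median -0.22, or -0.10 on poly(A) controls and -0.64 with 38 lower and 16 higher on hybridization controls). Cdk1, the mitotic kinase, read 12.75, 12.74, 12.44 and 12.62 untreated and 8.01, 8.21, 7.90 and 7.78 with amanitin, a 25.3-fold fall to a level still above the median (-4.66, SE 0.14). Cdc25c, a phosphatase that activates it, was lower (-4.10, SE 0.21) and Cdc25b, another, higher (2.23, SE 0.12). Ttk, the kinase of the spindle checkpoint, was higher (2.91, SE 0.14). Rpa2, the middle subunit of the single-strand DNA binding complex, fell by 6.45 (SE 0.21), and Pold3, of DNA polymerase delta, was higher (2.93, SE 0.11). Histone modifiers and remodelers counted 32 of 108 lower (29.6%), 49 higher (45.4%) and 27 not called, shares near those of all genes (median 0.22, or -0.20 with 44 lower and 25 higher on hybridization controls). Prmt6, an arginine methyltransferase, read 11.48, 11.64, 11.83 and 11.90 untreated and was at background with amanitin, at 3.73, 3.05, 3.65 and 5.05 (-7.84, SE 0.41, at least 82.7-fold lower against 5.34). Hdac1, a histone deacetylase, was lower (-5.35, SE 0.23) and Tet3, the dioxygenase of the zygote, higher (2.73, SE 0.40). Dnmt1, the maintenance DNA methyltransferase, was not called (-0.31, SE 0.21).

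Pluripotency and early lineage factors counted 24 of 46 lower (52.2%, against 25.8% of all genes), 10 higher (21.7%, against 38.6%) and 12 not called (median -0.41, or -0.89 on hybridization controls). Dppa4 fell from 11.70 ± 0.12 to 6.11 ± 0.45 and Tead4, the trophectoderm factor, from 8.17 ± 0.11 to 4.87 ± 0.78. Nr5a2, an orphan nuclear receptor, was 1.56 (SE 0.15) lower. Pou5f1, which encodes OCT4, went the other way, at 9.04, 9.06, 9.33 and 8.94 untreated and 10.89, 10.77, 10.85 and 10.76 with amanitin (1.73, SE 0.11), as did Gata3 (3.32, SE 0.25), a trophectoderm factor whose untreated reading of 3.27 ± 0.06 is background. Sox2 was not called (-0.39, SE 0.29). Of the p53 and stress genes 19 of 47 were lower (40.4%), 11 higher (23.4%) and 17 not called (median -0.34, or -0.83 with 6 higher on hybridization controls), led by the metallothionein Mt1 (-5.49, SE 0.28), at 12.73, 12.65, 11.97 and 11.97 untreated and 6.70, 7.39, 6.60 and 6.69 with amanitin. Myc was lower (-2.88, SE 0.43) and ended at background.

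Maternal messages were mostly higher with amanitin. Of 59 measured oocyte and maternal-effect genes 46 were higher (78.0%, against 38.6% of all genes), 6 lower and 7 not called, with a median of 1.42. The median level of these genes in untreated 1-cell embryos was 11.72. Of all 776 genes above 11 there, 72.9% were called higher, a share near that of the list. Nobox, a homeobox regulator of oocyte genes, read 4.05, 3.91, 5.18 and 3.71 untreated and 8.90, 8.52, 9.39 and 9.27 with amanitin. Its untreated readings were all background, so the 28.0-fold difference is at least 12.8-fold against the overall median (4.81, SE 0.28). Zfp57, which protects imprints, read 3.92, 3.57, 4.08 and 4.05 against 7.91, 7.75, 8.20 and 7.21 (3.86, SE 0.37). Oas1e, an oocyte member of the oligoadenylate synthetase family, was higher (3.72, SE 0.14), as was Nlrp4e (3.91, SE 0.14), of the oocyte NLRP family. The 6 that were lower were Trim28, Sall4, Zp3, Taf4b, Khdc3 and Cd9. Trim28, the corepressor that works with ZFP57, had the largest decrease of them (-2.74, SE 0.15), and Zp3, a zona pellucida protein, read 10.07, 10.02, 9.61 and 9.77 against 8.71, 8.69, 8.77 and 8.82 (-1.12, SE 0.12). Spin1, a spindle-associated protein among the 8 genes with the highest untreated readings, was not called (-0.12, SE 0.07). As deposited it was called higher (0.38).

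Meiosis genes counted 20 of 30 higher (66.7%, against 38.6% of all genes), 7 lower (23.3%, near the 25.8% of all genes) and 3 not called (median 1.06, or 0.58 with 14 higher on hybridization controls). Dazl, a germ-cell RNA binding protein, read 6.73, 6.65, 7.55 and 7.18 against 11.22, 11.11, 10.96 and 11.31 (4.12, SE 0.14). Mos, the kinase that holds eggs in metaphase, stood at 3.20, 3.21, 3.69 and 3.51 without and 4.99, 5.31, 6.07 and 5.89 with amanitin, all low readings that do not overlap (2.16, SE 0.24). Hormad1, of the meiotic chromosome axis, was lower (-4.71, SE 0.27). Factors of mRNA storage and decay counted 35 of 76 higher (46.1%), 23 lower (30.3%) and 18 not called, shares near those of all genes (median 0.23, or -0.22 with 24 higher and 30 lower on hybridization controls). Btg4, the adaptor that brings the CCR4-NOT deadenylase to maternal messages, read 11.54, 11.58, 11.99 and 11.90 against 13.39, 13.45, 13.41 and 13.45 (1.67, SE 0.08). Cnot6l, a deadenylase of that complex, was 1.63 (SE 0.09) higher and Cnot7, another, 0.90 (SE 0.09) higher. The uridylyl transferases Tut4 and Tut7, which mark shortened tails, were lower, Tut4 at 6.87, 7.20, 6.75 and 7.28 untreated and 5.24, 5.20, 5.08 and 5.40 with amanitin (-1.80, SE 0.22), and Tut7 by 1.12 (SE 0.14).

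The 15 largest increases were in messages that read 6.87 to 12.66 in the untreated 1-cell embryo. Zfp383, a zinc finger gene, read 5.04, 5.32, 5.79 and 5.28 untreated and 10.44, 10.54, 10.53 and 10.47 with amanitin (5.14, SE 0.20), beside 11.09 in untreated 1-cell embryos. Serpinb12, a protease inhibitor, read 3.88, 3.13, 5.14 and 4.74 against 9.06, 9.11, 9.19 and 9.20 (4.92, SE 0.26), beside 9.05. Aplf, a repair factor, read 3.40, 3.52, 3.82 and 3.67 against 8.12, 8.37, 8.66 and 8.47 (4.80, SE 0.22), beside 8.44. In each, the 4 amanitin arrays lay far above the untreated ones and near the 1-cell level. Psenen, a subunit of gamma-secretase, was measured above background on both sides, at 8.33, 8.04, 8.77 and 9.0 against 12.80, 12.68, 12.77 and 12.54, a 17.9-fold difference (4.16, SE 0.13). Insm1 (4.74, SE 0.23), a zinc finger repressor, and Crabp2 (4.47, SE 0.27), a retinoic acid binding protein, were also among the 15 largest.

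**Figure D3:**
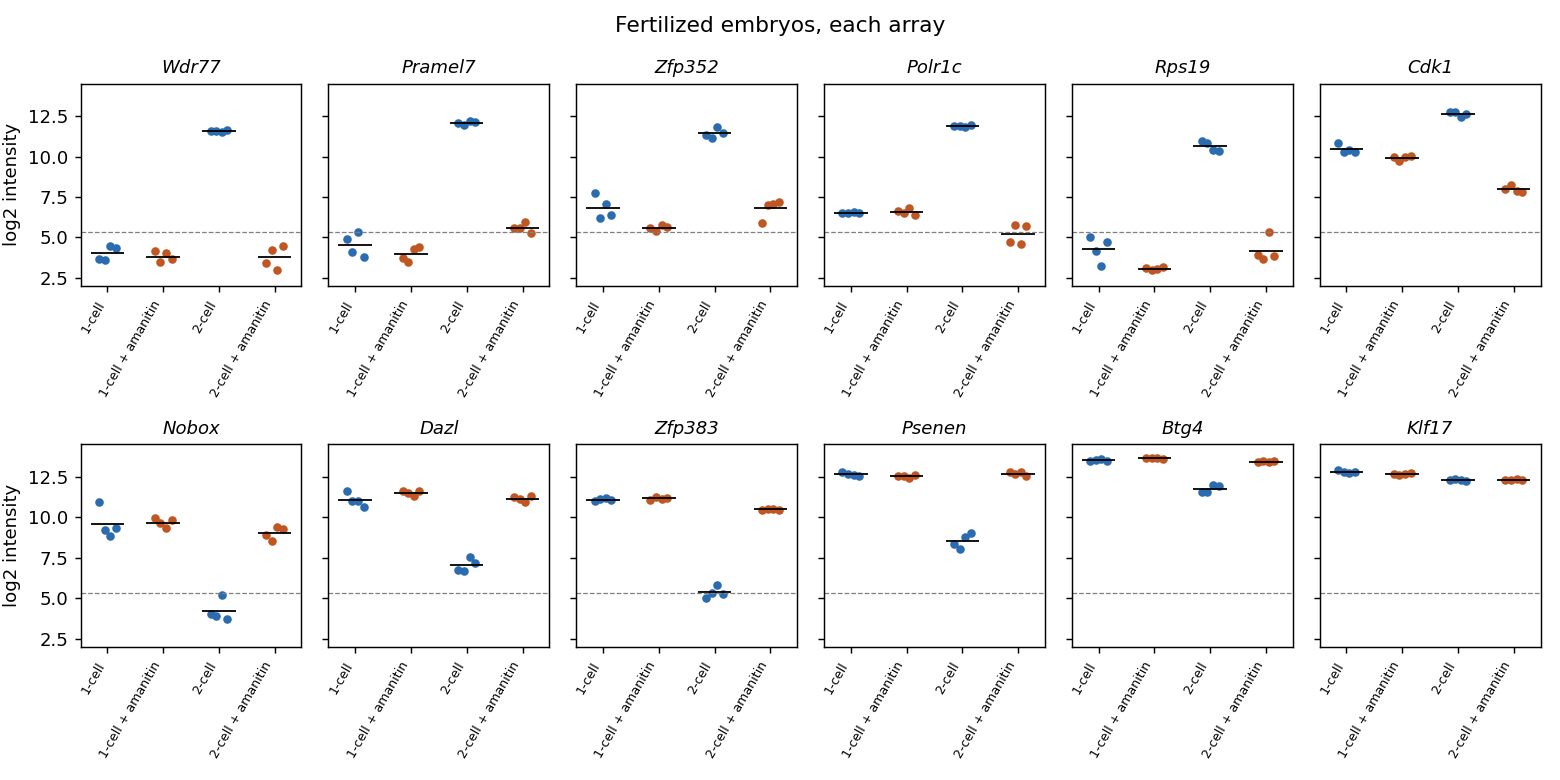
Log2 intensity of 12 genes on each array of fertilized 1-cell and 2-cell embryos without and with amanitin (4 arrays a group, horizontal bars at the group mean, dashed line at the overall median of 5.34). In the upper row the amanitin 2-cell arrays lie far under the untreated 2-cell arrays, and in the lower row they lie above them, except for Klf17, which was not called.

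Levels in the amanitin 2-cell embryo were set beside those of the untreated 1-cell embryo. Of the 2942 genes at least 2-fold lower, the amanitin mean was within 1 unit of the 1-cell mean for 2162 (73.5%), more than 1 unit under it for 727 (24.7%) and more than 1 unit over it for 53 (1.80%). Of the 3534 genes at least 2-fold higher, it was within 1 unit for 2976 (84.2%), under for 254 (7.19%) and over for 304 (8.60%). The untreated 2-cell mean of the higher genes was more than 1 unit under the 1-cell mean for 2458 (69.6%). Of all 14916 genes, the amanitin mean was within 1 unit for 85.2%, a share at or above those of both sets. Of the lower set, 40.8% lay under 5.34 with amanitin and 32.1% in the 1-cell embryo, where background sets the level. These are levels without a test, and the sets were chosen on the same amanitin arrays. Split by the 1-cell level, the share called lower was 31.0% of 3360 genes under 5.34 and 16.1% of 776 genes above 11, and the share called higher was 9.85% and 72.9%. Genes under 5.34 in 1-cell embryos passed the filter only through other groups in which they were high, untreated 2-cell embryos among them, so the filter fixes part of this split.

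**Figure D4:**
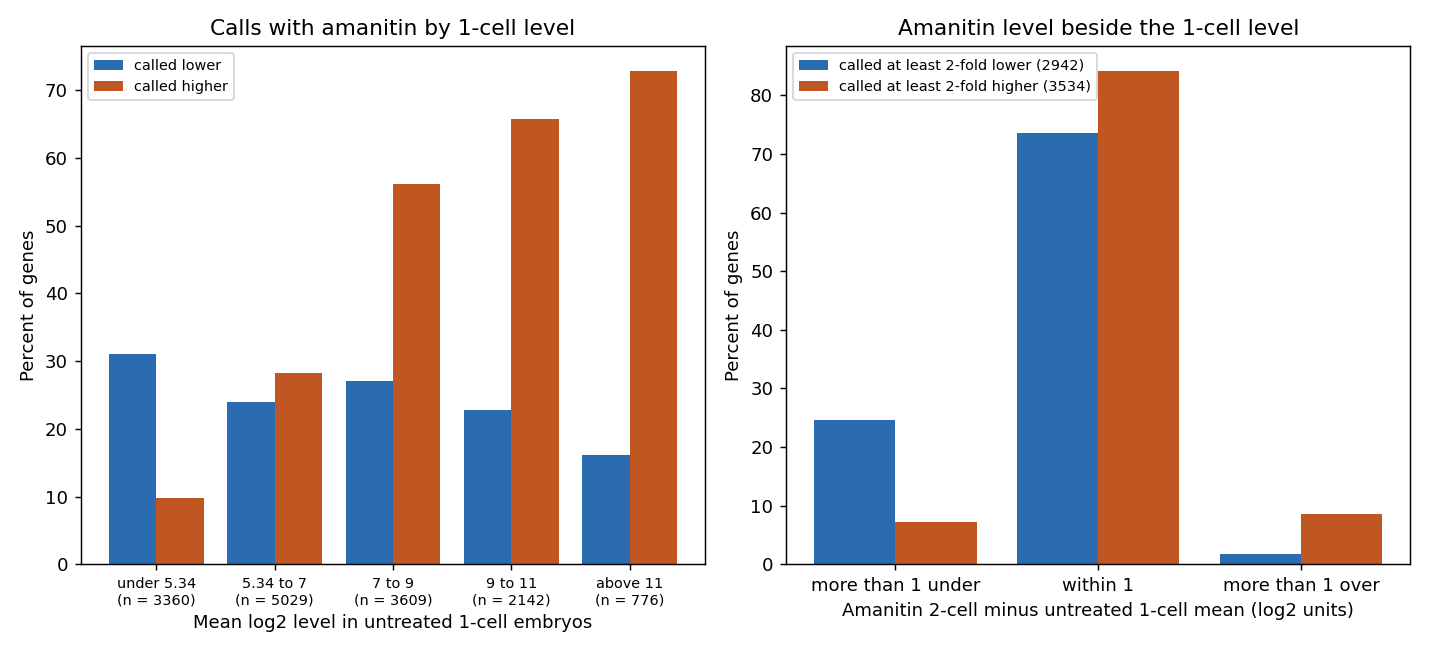
Left, percent of genes called lower and higher with amanitin by their mean log2 level in untreated 1-cell embryos, with the number of genes under each bin. Right, for the 2942 genes at least 2-fold lower and the 3534 at least 2-fold higher, percent whose 2-cell mean with amanitin was more than 1 log2 unit under, within 1 unit of, or more than 1 unit over the untreated 1-cell mean.

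Messages with a like, high level in untreated 1-cell and 2-cell embryos were called lower at a share near that of all genes. Of 763 genes with a 1-cell mean of at least 9 and an untreated 2-cell mean within 0.5 of it, 189 were called lower (24.8%, near the 25.8% of all genes), 411 higher (53.9%, against 38.6%) and 163 were not called, and 88 were at least 2-fold lower (11.5%, against 19.7%). Of all genes at 9 to 11 in 1-cell embryos, 22.8% were called lower and 65.8% higher. Of those above 11, 16.1% were called lower and 72.9% higher. The rule for the 763 genes uses the untreated 2-cell arrays, which are also 1 side of the comparison. It leaves out genes whose untreated level differed between the stages, so it fixes part of both shares. No conclusion is thus drawn from the smaller 53.9% beside genes of like level. The 8 with the largest decreases, a rule set after the values were seen, were Dnaja1, Hspa8, Eif3e, Cdca2, Vcp, Utp4, Tsn and Gmps. Dnaja1, a co-chaperone, read 11.94 in 1-cell embryos, 12.30 ± 0.05 in untreated and 8.41 ± 0.16 in amanitin 2-cell embryos. The constitutive chaperone Hspa8 read 11.55, then 11.89 ± 0.16 and 8.38 ± 0.31, and Eif3e, of initiation factor 3, 11.46, then 11.39 ± 0.12 and 7.94 ± 0.32. Gmps, which makes GMP, read 10.22, then 10.12 ± 0.11 and 6.90 ± 0.39. In 1-cell embryos with amanitin these genes read 11.75, 11.08, 11.63 and 9.92, so the lower level was not seen at that stage.

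Members of one family or one complex could lie on opposite sides, as in the 8 pairs below, put together after the values were seen. The poly(A) binding proteins Pabpc1, found in somatic cells, and Pabpc1l, of the egg, differed by -5.28 (SE 0.15) and 2.68 (SE 0.20). Pabpc1 read 12.76, 12.69, 12.69 and 12.83 untreated and 7.43, 7.31, 7.33 and 7.78 with amanitin, and Pabpc1l 6.37, 6.14, 6.13 and 6.19 against 8.80, 9.03, 8.93 and 8.80. The phosphoribosyl pyrophosphate synthetases Prps1 and Prps2 differed by -7.55 (SE 0.38) and 1.86 (SE 0.50). The glucose transporters Slc2a3 and Slc2a1 differed by -3.48 (SE 0.25) and 2.47 (SE 0.18), and the ATP synthase c-subunit genes Atp5g1 and Atp5g2 by -2.79 (SE 0.21) and 2.27 (SE 0.20). The importins Kpna1 and Kpna7 differed by -3.10 (SE 0.18) and 3.58 (SE 0.12), and the replication protein A subunits Rpa2 and Rpa1 by -6.45 (SE 0.21) and 1.95 (SE 0.10). The phosphatases Cdc25c and Cdc25b, and Obox6 and Obox5, complete the list with the values given above.

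Other transcripts with high readings were alike in the groups within narrow limits after quantile normalization, but not as deposited. Khdc1b, of an oocyte KH-domain family, read 13.55, 13.49, 13.58 and 13.55 untreated and 13.49, 13.52, 13.58 and 13.49 with amanitin (95% interval of the difference -0.15 to 0.09). Serf2 had an interval of -0.11 to 0.12 and Bmi1, of Polycomb repressive complex 1, one of -0.09 to 0.13. As deposited, without the quantile step, Khdc1b was called higher (0.50), and Serf2 and Bmi1 differed by 0.36 and 0.40. These readings lie near the top of the intensity range.

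The amanitin effect was compared between the 1-cell and 2-cell stages by the test of the difference. Taking the effect in fertilized 1-cell embryos away from the effect in 2-cell embryos, 8145 of 14916 genes were called (54.6%), 3391 below 0 (22.7%) and 4754 above (31.9%). Under median centring 7532 genes were called, 3718 above and 3814 below, and on hybridization controls 6106 of 15271, 2176 above and 3930 below. For Btbd18 the 2-cell effect was -7.38 and the 1-cell effect 0.75, a difference of -8.13 (SE 0.48). Tmppe, a phosphoesterase domain gene, differed by -8.16 (SE 0.35) between the stages, and Zfp383, with a 1-cell effect of 0.08, by 5.05 (SE 0.28). In 1-cell embryos without and with amanitin Btbd18 read 3.59 and 4.34, and Tmppe 4.04 and 5.03. These are background readings, so a fall could not be measured there. Of all genes tested, 3360 lay under 5.34 in untreated 1-cell embryos, with the same limit. In ribosome biogenesis 95 of 107 members were called below 0 and 1 above, and among oocyte genes 44 of 59 above and 4 below.

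Fertilized and SCNT embryos differed in their response for 5807 genes (38.9%), 2657 below 0 (17.8%) and 3150 above (21.1%), as the fertilized minus the SCNT effect. Centred on hybridization controls, the numbers were 346 below and 6469 above. Proteasome subunits, with 40 of 45 above and 0 below, and oxidative phosphorylation, with 60 of 75 above and 2 below, were less lowered or more raised in fertilized embryos. The proteasome subunit Psmb3 stood at 7.27 ± 0.07 untreated and 9.88 ± 0.16 with amanitin in fertilized embryos, and at 9.34 and 6.71 in SCNT embryos (5.24, SE 0.24). Tardbp, an RNA binding protein, went from 9.51 to 11.56 in fertilized and from 10.83 to 6.98 in SCNT embryos (5.90, SE 0.18), though 3 of its 5 called probe sets were lower with amanitin in fertilized embryos. Polr2a, not called in fertilized embryos, read 7.93 and 4.95 in SCNT embryos without and with amanitin, and the effects differed by 2.73 (SE 0.36). Eif2s3y, a Y-linked initiation factor gene, read 6.64, 6.83, 7.34 and 7.41 untreated and 2.86, 2.96, 2.99 and 2.93 with amanitin in fertilized embryos, and 2.93 and 3.12 in SCNT embryos (-4.30, SE 0.44), though another of its probe sets, used without the filter on low values, gave 0.22. In untreated parthenogenetic 2-cell embryos Eif2s3y read 2.95. The pioneer factor Foxa1 read 7.42 and 3.53 in fertilized and 4.10 and 3.96 in SCNT embryos (-3.75, SE 0.54). For Eif2s3y and Foxa1 the untreated SCNT readings are background, so a fall with amanitin could not be measured there. Ribosome biogenesis was divided in this difference, with 37 of 107 above and 29 below. The labels name no medium for these 2-cell samples, so a difference in culture and the origin of the embryos cannot be told apart.

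**Figure D5:**
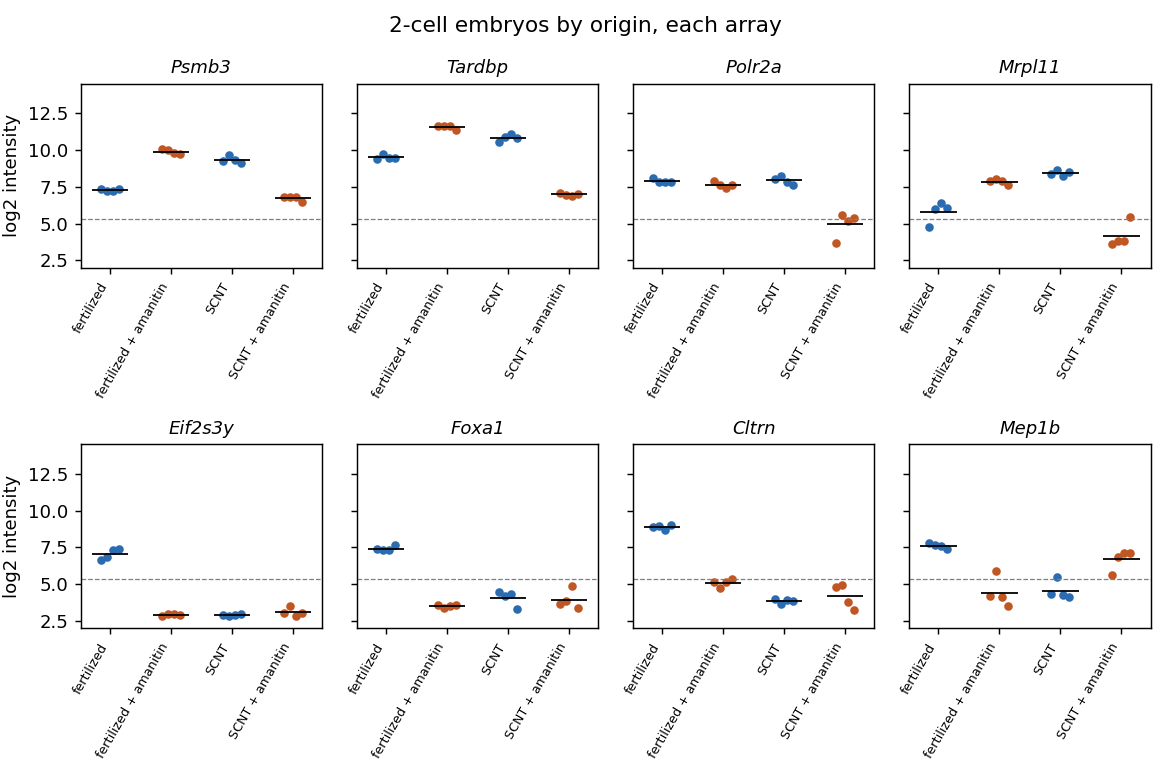
Log2 intensity of 8 genes whose amanitin effect differed between fertilized and SCNT 2-cell embryos, on each array without and with amanitin (4 arrays a group, bars at the group mean, dashed line at the overall median of 5.34). The upper row holds genes with a difference of effects above 0 and the lower row genes with one below 0.

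Probe sets of 1 gene did not always point the same way. Of 3851 genes with several called probe sets, 3243 had all of them in 1 direction and 608 (15.8%) in both. Hmgb2, a chromatin protein, had probe sets at -4.73 (SE 0.25), -2.25 (SE 0.21) and 3.14 (SE 0.23), and Csnk1e, casein kinase epsilon, at -3.60 (SE 0.51), 2.38 (SE 0.14) and 3.16 (SE 0.12). Ewsr1, the RNA binding protein, had one at -2.64 (SE 0.35) and one at 2.60 (SE 0.24). The brightest probe set stood for each gene in the counts, and transcript ends or introns that each set reads were not examined.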

How the data were processed

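Poly(A) RNA of mouse embryos was labelled with biotin and hybridized to arrays, 1 per sample. The deposited values are linear probe set intensities, which the authors scaled so that the trimmed mean of each array (2% at each end) was 150, as found from the values; the software is not given in the sources used here. For 1 of 40 samples no values were used here. Log2(value + 6.9), the constant being the 20th percentile, was quantile normalized over 39 arrays. A filter kept the 31153 of 45101 probe sets that exceeded 5.34, the median of all values, on 4 arrays or more, and set aside 64 control probe sets. Of all probe sets 34945 had 1 gene symbol, 932 several and 9160 none in GEO's platform annotation, and symbols were updated through Entrez IDs to RefSeq (GRCm38.p6, 34754 matched). Where a gene had several probe sets the brightest was taken, which left 14916 genes. limma 3.58.1 (R 4.3.3) was fitted with all 10 groups (29 residual degrees of freedom, trend) and p-values adjusted by Benjamini-Hochberg over all genes at 0.05; the 2 differences of effects are contrasts of the same fit. The procedure was tested on simulated data. The 15 largest changes each way, the extremes and fixed members of each list, abundant genes and the extremes of the differences were candidates for naming. Members and lists were chosen with earlier results of these data known. Unless a sentence says otherwise, a gene described as higher or lower passed the test, with an adjusted p of at most 0.0401, and the 4 arrays of its groups did not overlap (125 of 125 called genes named). Same-numbered samples did not pair (residual correlations 0.03936, -0.003012, 0.006243 and 0.09224), so the numbers were only names. The number of arrays limits the precision.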

Additional observations from a re-analysis of the deposited data

Results flagged for a closer look

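In 14 of 270 groups of 4 arrays examined (5.19%), 1 array stood apart from the other 3 by Dixon's criterion, which chance does in about 1 of 20. With amanitin, Zfp352 read 5.92 in replicate 1 (others 7.03 to 7.22), Surf6 4.18 in replicate 4 (3.17 to 3.34), Rps19 5.32 in replicate 3 (3.69 to 3.91), Rpl41 8.33 in replicate 3 (7.72 to 7.81) and Med7 6.03 in replicate 3 (6.28 to 6.33). Also with amanitin, Mt1 read 7.39 in replicate 2 (others 6.60 to 6.70), Slc2a1 9.34 in replicate 2 (9.48 to 9.50), Rpa1 10.68 in replicate 4 (11.25 to 11.27) and Tardbp 11.38 in replicate 4 (11.61 to 11.62). Untreated, Polr2a read 8.08 in replicate 1 (others 7.80 to 7.85), Cdca2 9.36 in replicate 1 (9.55 to 9.58), Tardbp 9.74 in replicate 2 (9.40 to 9.46), Sall4 10.74 in replicate 3 (11.06 to 11.10) and Slc2a3 9.74 in replicate 3 (9.59 to 9.60).

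The amanitin effect differed between the 2-cell and the 1-cell stage for 8145 genes, by the limma contrast of the effects. Among them were Tmppe (-8.16), Btbd18 (-8.13) and Zfp383 (5.05). It differed between fertilized and SCNT 2-cell embryos for 5807 genes, among them Tardbp (5.90), Psmb3 (5.24), Polr2a (2.73), Foxa1 (-3.75) and Eif2s3y (-4.30). Foxa1 and Eif2s3y were at background in untreated SCNT embryos, and Tmppe and Btbd18 in 1-cell embryos.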

How the results depend on the processing

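Centring on hybridization controls left 3132 genes higher with amanitin, 2176 above 0 in the difference between stages, and 6469 above and 346 below 0 in the difference between origins. It also left 1956 genes at least 2-fold higher, and moved counts of higher members in many lists by more than 1.5 times, as given beside them. The total counts of genes called for each of the 3 contrasts stayed within 1.5 times under every alternative run. Leaving out 1 array gave 9195 to 9349 genes called (5490 to 5567 higher, 3649 to 3797 lower), 7893 to 8041 for the stages (4594 to 4702 above 0, 3264 to 3362 below) and 5549 to 5802 for the origins (3006 to 3192 above, 2487 to 2644 below). With the replicate number as a block, on the compared arrays, 9057 genes were called (5277 higher, 3780 lower), 8199 for the stages and 5130 for the origins, and 3 of 8 samples correlated best with their own number. Of 2818 values of the 135 named genes, 2770 kept their call, with the same direction where called. Values that stayed uncalled count among these whatever their sign. Of the rest, 16 lost the call, 16 gained it in the same direction, and 16 turned sign from a called value or on gaining the call. Causes were not tested. As deposited and with median centring Klf17 (0.31), Spin1 (0.38) and Khdc1b (0.50) were called higher. With the probe sets of each gene averaged Klf17 gave 0.39, Spin1 0.66, Rpl13a -1.08, Tardbp -0.16 and Ewsr1 -0.02. Nol8 gave -0.16 on hybridization controls. Rpl13a gave -0.56 on the compared arrays alone, -0.56 with the replicate block there and -0.26 on poly(A) controls. Without the filter another probe set stood for Eif2s3y, with an effect of 0.39 and a difference between origins of 0.22. Of the named genes, 34 that were lower ended under the overall median with amanitin and 10 that were higher started under it, where intensity limits the size of a difference.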
